A study of Homo sapiens with 6 samples.

Results

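The nuclear factor (NF)-κB system was examined through 10 genes, the Rel factors NFKB1, NFKB2, RELA and RELB, the feedback inhibitors NFKBIA and TNFAIP3, and the target genes BIRC3, TRAF1, ICAM1 and TNFAIP2. They were taken by gene symbol from the 24462 symbols in the count files, each of the 10 had a single row, and all 10 were among the 16314 genes that passed the filter on low counts. The samples are 6 RNA samples of cells labelled PC3, a human prostate cancer line that was established from a metastasis in bone, grown in RPMI1640 with 10% heat-inactivated serum. The Control group is 3 samples of cells given a non-targeting siRNA, and the si-CITED2 group is 3 samples of cells given siRNA against CITED2, a transcriptional coregulator that binds CBP and p300. Both groups received 80 nM of siRNA for 72 h, so the cells of both groups were transfected, and no untransfected cells were analysed here. RNA was extracted with Trizol and sequenced as bulk mRNA libraries. The study places NF-κB between AKT and SNAIL in the migration of prostate cancer cells, and the comparison asks how the mRNAs of this system differed between the groups.

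The total count ranged from 19508925 to 28936374 reads per library, so that 3 reads, taken as the smallest detectable number, stood for 0.104 to 0.154 CPM, the count scaled to library size. CITED2, the targeted gene, was counted 966, 1108 and 657 times in Control replicates 1, 2 and 3 and 893, 964 and 898 times in the libraries labelled si-CITED2. Its log2 fold change was 0.24 ± 0.074 (SE), higher in the libraries labelled si-CITED2 (adjusted p = 0.0363, edgeR's quasi-likelihood test), which goes against the label at the mRNA level, and leaving out single libraries gave 0.17 to 0.29 with the call held in 2 of 6 fits. All directions below are therefore those of the libraries labelled si-CITED2. The study checked the knockdown in PC3 cells on CITED2 protein, by immunoblot, which these counts do not measure. The epithelial and line markers KRT8, KRT18, EPCAM, VIM and CD44 were abundant in all libraries but also differed between the groups, with CD44 (log2 fold change 0.89), VIM (0.26), KRT8 (0.24) and KRT18 (0.18) higher and EPCAM (-0.33) lower in the libraries labelled si-CITED2. KLK2, a marker of luminal prostate cells, had 0 reads in every library. CTNNA1, a gene known to be deleted in PC3, went against the cell line's label, with 9796 to 13339 reads per library. Over 10 blood and endothelial markers the summed level was 45.3 to 56.5 normalised counts in Control and 76.5 to 96.4 in the libraries labelled si-CITED2. Of the 2 that passed the filter HBB was called, with 0 reads in each Control library and 20, 32 and 20 in the others. The other, LYZ, had 10, 20 and 27 reads in Control and 21, 36 and 40 in the libraries labelled si-CITED2. LYZ was not called (adjusted p = 0.107, edgeR). PTPRC had 2, 2 and 1 reads in Control and 0 reads in every library labelled si-CITED2. The part of these signals in the results was not tested.

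NF-κB is a family of dimers built from RELA, RELB, REL and the DNA-binding subunits p50 and p52, which are cut from the precursors encoded by NFKB1 and NFKB2. IκB proteins such as NFKBIA hold the dimers in the cytoplasm until the IκB kinase (IKK) complex marks them for degradation, and the freed dimers switch on inflammatory and survival genes along with NFKBIA, TNFAIP3 and their own precursors, which closes a feedback loop. In an alternative branch, the kinase MAP3K14 drives processing of NFKB2 and activates RELB. PC3 cells are known for constitutive NF-κB activity.

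The short DNA element that these dimers bind, the κB site, is shown where its letters were found near the start of these genes, since it is the element through which NF-κB acts on its targets. Promoters of 300 bases, 250 before and 50 after the start of transcription, were taken from RefSeq (GRCh38.p14) and matched 9 of the 10 genes with 15 promoters. RELB was the other gene. The κB consensus, searched on both strands, was found in 6 of the 15 promoters (40%), those of NFKB1, NFKB2, NFKBIA, TNFAIP3 and BIRC3, against 11.3% of all 35116 promoters of this length. A shorter form, GGNNNTTCC, which lies inside many matches to the consensus and was chosen after the promoters had been seen, was found in 10 of the 15 promoters (66.7%), from 8 genes, against 20.1% of all promoters. RELA was the gene with a promoter and no match to either form. These are matches of letters and not measured binding. The windows below, each 30 bases and written 5′ to 3′ on the strand of the gene, have the match in capitals, and those of ICAM1 and TNFAIP2 match only the shorter form.
NFKB1, chr4:102501300-102501329, plus strand: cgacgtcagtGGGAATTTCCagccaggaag
NFKB2, chr10:102395674-102395703, plus strand: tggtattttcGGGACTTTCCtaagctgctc
NFKBIA, chr14:35404811-35404840, minus strand: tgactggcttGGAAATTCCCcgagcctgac
TNFAIP3, chr6:137867194-137867223, plus strand: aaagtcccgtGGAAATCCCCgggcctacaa
BIRC3, chr11:102317275-102317304, plus strand: tttgggtcatGGAAATCCCCgagtgggttt
ICAM1, chr19:10270924-10270953, plus strand: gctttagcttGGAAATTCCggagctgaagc
TNFAIP2, chr14:103123354-103123383, plus strand: ctccgcccgcGGGTTTTCCgcggttgcggc

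Of the 10 genes, 9 rose in the libraries labelled si-CITED2 and 0 fell at an adjusted p under 0.05 over all genes fitted, where 9.36% of all genes rose, 8.09% fell and 17.4% were called in either direction. Among the 8535 genes at or above the level of TRAF1, the lowest of the 10, 12.5% rose and 25.3% were called in either direction. The median log2 fold change of the 10 genes was 0.33, against -0.0014 over all genes fitted. The changes were modest for most of the genes. ICAM1 and TRAF1, with the largest rises, were at 2.05 and 1.98 times the Control level, and the other 7 genes that rose lay between 1.11 and 1.37 times. In 8 of the 10 genes all 3 libraries labelled si-CITED2 lay above all 3 Control libraries, as in 16.4% of all genes, and in 0 of the 10 did they lie below, as in 16.1%. With 3 libraries against 3, an exact permutation test of a single gene cannot go below p = 0.1, which these 8 genes reached (2-sided).

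**Figure D1:**
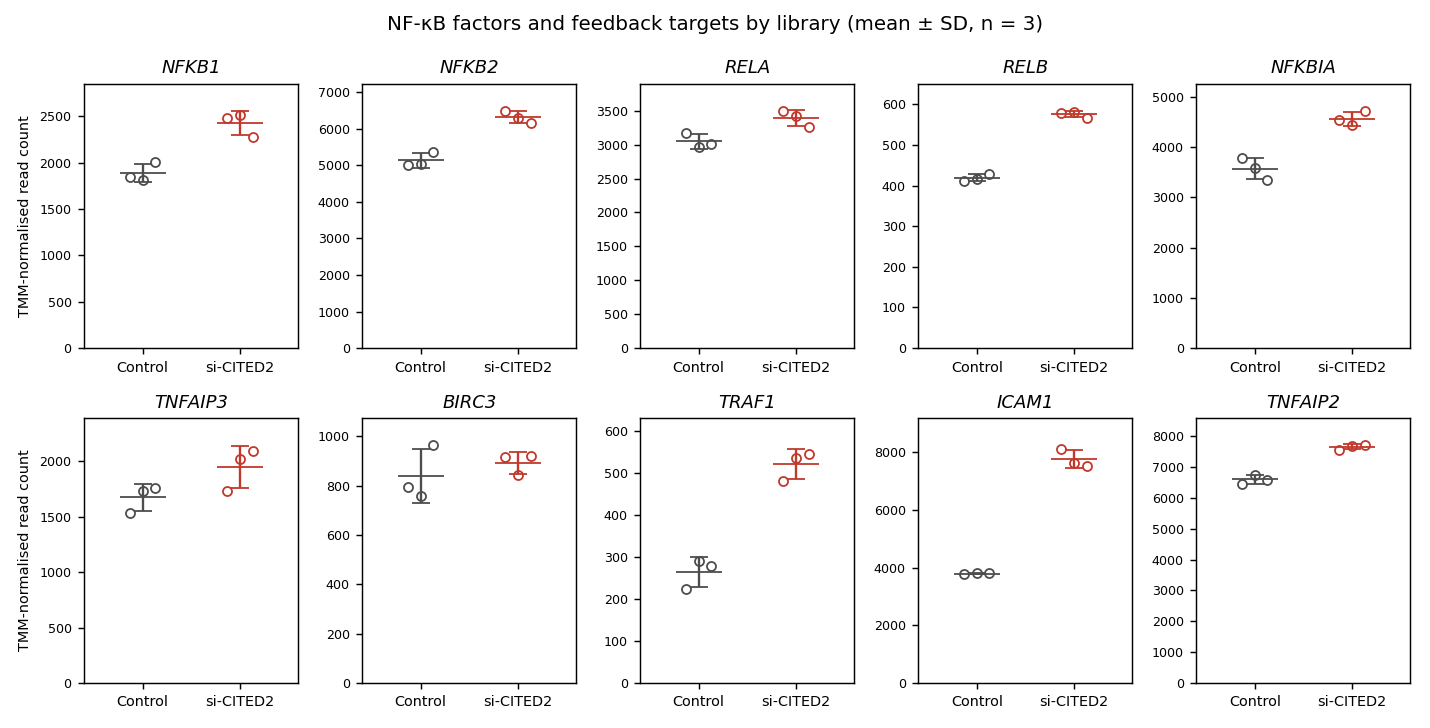
TMM-normalised read counts of the 10 genes (vertical axes, from 0) in the 3 Control libraries (grey) and the 3 libraries labelled si-CITED2 (red), with each library as a circle and the mean ± SD as bars. The groups are apart in 8 panels and overlap in those of TNFAIP3 and BIRC3.

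Among the Rel factors, NFKB1 (chromosome 4, 102501329 to 102617302, GRCh38), which encodes the p105 precursor of p50, was at 1845, 1816 and 2004 normalised counts in Control replicates 1, 2 and 3 and at 2484, 2516 and 2277 in replicates 1, 2 and 3 of the libraries labelled si-CITED2. The groups did not overlap, and the log2 fold change was 0.36 ± 0.058 (SE, adjusted p = 0.000291, edgeR). Its promoter carries the consensus match shown above, 49 bases before the RefSeq start of transcription, which differs from the first position of the gene given here. NFKB2 (chromosome 10, 102394110 to 102402529), which encodes the p100 precursor of p52, was at 5005, 5035 and 5364 normalised counts in Control and at 6495, 6281 and 6161 in the libraries labelled si-CITED2. Every library labelled si-CITED2 was again above every Control library, with a log2 fold change of 0.30 ± 0.049 (SE, adjusted p = 0.00033, edgeR).

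RELB (chromosome 19, 45001430 to 45038198), the partner of p52 in the alternative branch, had the tightest groups of the 4 factors, at 411.5, 417.0 and 429.5 normalised counts in Control and at 579.2, 580.0 and 566.4 in the libraries labelled si-CITED2. Its log2 fold change of 0.46 ± 0.075 (SE, adjusted p = 0.000331, edgeR) was the largest among the Rel factors. RELA (chromosome 11, 65653596 to 65663094), the p65 subunit of the most abundant NF-κB dimer, was at 3174, 2960 and 3011 normalised counts in Control and at 3497, 3424 and 3256 in the libraries labelled si-CITED2. The groups were apart by a narrow margin, between 3174 in the highest Control library and 3256 in the lowest of the others. The log2 fold change of RELA was 0.15 ± 0.051 (SE, adjusted p = 0.0477, edgeR), and the call was lost when Control replicate 2 or 3 or any replicate of the libraries labelled si-CITED2 was left out (adjusted p = 0.0557 to 0.186, edgeR), with no filter or with library size alone. REL, the remaining Rel factor, was at 975.7 ± 23.9 normalised counts (SD, n = 3) in Control and at 1086 ± 116 in the libraries labelled si-CITED2, and was not called (adjusted p = 0.176, edgeR).

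Both feedback inhibitors were called, one of them barely. NFKBIA (chromosome 14, 35401511 to 35404749), which encodes IκBα, was at 3779, 3578 and 3349 normalised counts in Control and at 4541, 4436 and 4713 in the libraries labelled si-CITED2. The lowest of these was well above the highest Control library, and the log2 fold change was 0.35 ± 0.053 (SE, adjusted p = 0.000162, edgeR). TNFAIP3 (chromosome 6, 137867188 to 137883312), which encodes the ubiquitin-editing enzyme A20, was at 1531, 1733 and 1759 normalised counts in Control and at 1733, 2025 and 2093 in the libraries labelled si-CITED2. Replicate 1 was the lowest in both groups, and the groups overlapped, since that library of the si-CITED2 label was below Control replicate 3. The log2 fold change of TNFAIP3 was 0.22 ± 0.072 (SE, adjusted p = 0.0439, edgeR). The call was lost without Control replicate 1 or 2 or without replicate 2 or 3 of the libraries labelled si-CITED2, with log2 fold changes of 0.16 to 0.25 and adjusted p = 0.0701 to 0.205 (edgeR), and with library size alone (adjusted p = 0.0661).

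The genes of survival signalling diverged. TRAF1 (chromosome 9, 120902393 to 120929173), an adaptor of the TNF receptor family, had the lowest counts of the 10 genes, at 223.1, 289.0 and 277.7 normalised counts in Control and at 480.9, 536.0 and 545.6 in the libraries labelled si-CITED2. The spread within each group was far smaller than the distance between the groups, with a log2 fold change of 0.99 ± 0.10 (SE, adjusted p = 3.26e-06, edgeR). BIRC3 (chromosome 11, 102317450 to 102339403), which encodes the inhibitor of apoptosis cIAP2, was at 793.7, 756.8 and 963.7 normalised counts in Control and at 914.3, 842.7 and 921.4 in the libraries labelled si-CITED2. The highest of the 6 was a Control library, and the ratio of the libraries labelled si-CITED2 to Control was 1.07 with a 95% interval of 0.947 to 1.21 (adjusted p = 0.496, edgeR). A rise of the size seen for ICAM1 or TRAF1 lies outside this interval, while smaller rises such as that of RELA lie within it. BIRC3 was the only gene of the 10 that was not called, and its promoter holds 2 matches to the κB consensus, 1 of which is shown above.

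ICAM1 (chromosome 19, 10270835 to 10286615), an adhesion molecule for leukocyte integrins, was at 3760, 3802 and 3805 normalised counts in Control and at 8121, 7636 and 7534.5 in the libraries labelled si-CITED2. The Control libraries were nearly alike and every library labelled si-CITED2 was far above them. The log2 fold change was 1.03 ± 0.048 (SE, adjusted p = 1.31e-10, edgeR), a ratio of 2.05 with a 95% interval of 1.91 to 2.20, and ICAM1 was 244th and TRAF1 267th of the 16314 genes when ordered by log2 fold change from the highest. No match to the κB consensus was found in the promoter windows of these 2 genes. TNFAIP2 (chromosome 14, 103123442 to 103137439), a gene induced by TNF, was at 6465, 6747 and 6581 normalised counts in Control and at 7570, 7688 and 7716 in the libraries labelled si-CITED2. Its groups were also apart, with the smaller log2 fold change of 0.22 ± 0.045 (SE, adjusted p = 0.00289, edgeR).

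**Figure D2:**
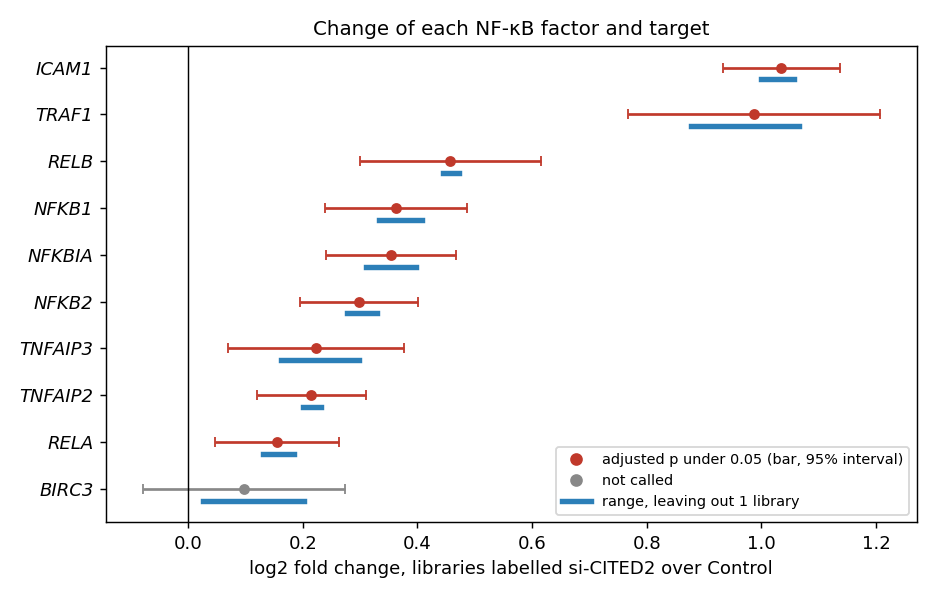
Log2 fold change of each gene, libraries labelled si-CITED2 over Control (horizontal axis), with its 95% interval from edgeR as a bar and the range over the 6 fits that each left out 1 library as a blue line below it. ICAM1 and TRAF1 lie near 1, 7 genes lie between 0.15 and 0.46, and the interval of BIRC3 alone includes 0.

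In the plot of all genes, the 10 genes cover the middle and upper range of expression and ICAM1 stands out at its level. Among genes at or above the level of TRAF1, 3.75% had an absolute log2 fold change over 0.5, against 8.8% of all genes fitted and 2 of the 10 genes. The cells were measured in bulk, so a larger share of cells expressing a gene and more RNA per cell cannot be told apart.

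**Figure D3:**
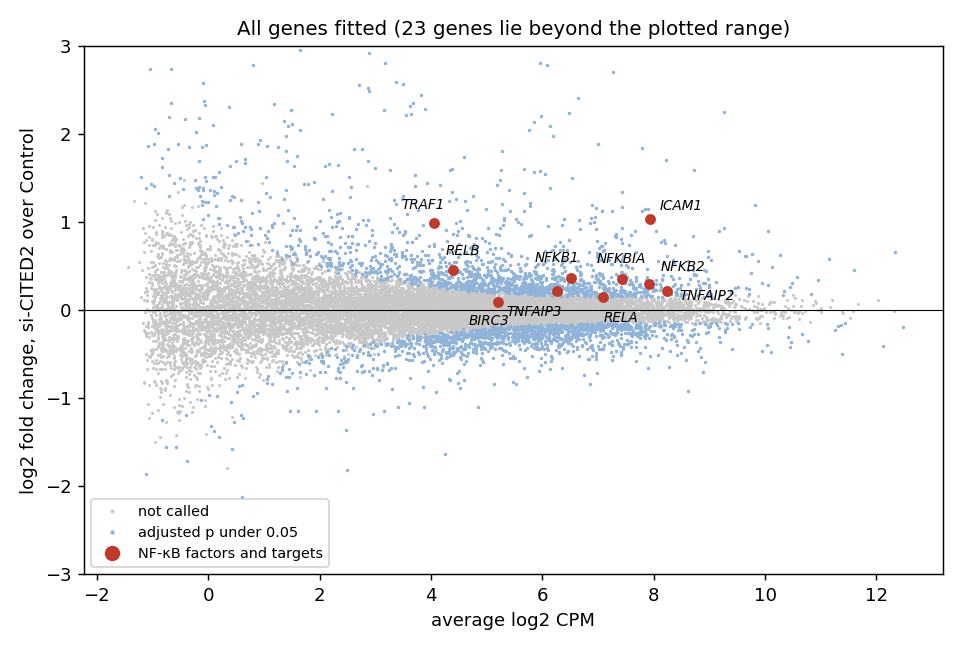
Log2 fold change, libraries labelled si-CITED2 over Control (vertical axis), against average log2 CPM (horizontal axis) for the genes fitted, with genes at an adjusted p under 0.05 in blue, the rest in grey and the 10 NF-κB genes in red. All 10 lie above 0, and 23 other genes lie beyond the plotted range.

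To compare levels between genes, counts were divided by the length of all annotated exons (GENCODE 29), and by the normalised library size, giving RPKM values. In Control the order of levels from the highest was NFKBIA at 63.8 ± 3.85 RPKM (SD, n = 3), TNFAIP2 at 55.7 ± 1.19, NFKB2 at 48.6 ± 1.89, ICAM1 at 43.4 ± 0.287, RELA at 23.7 ± 0.866, TNFAIP3 at 14.1 ± 1.05, NFKB1 at 12.8 ± 0.685, RELB at 5.86 ± 0.129, BIRC3 at 4.73 ± 0.623 and TRAF1 at 1.73 ± 0.232. TNFAIP3 and NFKB1 were the only neighbours in this order whose libraries overlapped. In the libraries labelled si-CITED2, ICAM1 moved from the fourth place to the first, at 88.9 ± 3.59 RPKM, above NFKBIA at 81.6 ± 2.50, and NFKB1 (16.5 ± 0.882) and TNFAIP3 (16.4 ± 1.61) again overlapped. On the same scale the 5 Rel factors summed to between 91.8 and 96.9 RPKM per Control library and between 110.3 and 117.5 per library labelled si-CITED2. NFKB2 made up 50.7% to 52.4% of that sum in Control and 51.9% to 52.9% in the libraries labelled si-CITED2. The share of RELA was 24.1% to 26.4% in Control and 22.9% to 23.2% in the others, and that of RELB was 6.16% to 6.35% and 6.89% to 7.18%. Isoform lengths can differ from the exon union, so levels between genes are approximate.

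Other genes of the pathway were described through 6 lists with 75 genes, of which 66 were fitted, 22 rose and 4 fell, 39.4% called in either direction against 17.4% of all genes. Among all genes at or above the level of TRAF1, 25.3% were called. By list, 33.3% of REL and the other IκB proteins, 30% of the kinases and 29.4% of the receptors and adaptors were called. The share was 44.4% for the ubiquitin ligases and deubiquitinases, 25% for the ligands and 55% for the other textbook targets. The median log2 fold change over these lists together was 0.06. Among REL and 5 IκB proteins other than NFKBIA, 2 of 6 rose and 0 fell. NFKBIE, which encodes the inhibitor IκBε, was 359.1 ± 11.2 normalised counts (SD, n = 3) in Control and 478.6 ± 27.2 in the libraries labelled si-CITED2 (log2 fold change 0.41, adjusted p = 0.0022, edgeR). NFKBIZ, a nuclear IκB protein, had a log2 fold change of 0.28 (adjusted p = 0.0432, edgeR). It lost its call without Control replicate 1 or without replicate 2 or 3 of the libraries labelled si-CITED2 (0.20 to 0.27), with library size alone and with DESeq2. The median log2 fold change of this list was 0.01, and 3 of its genes, NFKBIB, NFKBID and BCL3, lay below 0 without being called (these 3 are named after their values were seen).

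Of the 10 kinases at and above the IKK complex, 3 rose, 0 fell and 7 were not called. MAP3K14, the NF-κB-inducing kinase of the alternative branch, was at 1506, 1681 and 1540 normalised counts in Control and at 2101, 2414 and 2212 in the libraries labelled si-CITED2. The groups were apart, and the log2 fold change was 0.51 ± 0.063 (SE, adjusted p = 2.14e-05, edgeR). TAB3 (log2 fold change 0.24, adjusted p = 0.0304, edgeR), and MAP3K7, the kinase TAK1 to which it binds (log2 fold change 0.18, adjusted p = 0.0372, edgeR), also rose. The call of TAB3 was lost without Control replicate 2 or without replicate 1 or 2 of the libraries labelled si-CITED2 (log2 fold changes 0.17 to 0.26). That of MAP3K7 was lost without any single library other than replicate 1 of the libraries labelled si-CITED2 (0.15 to 0.20), with library size alone and with DESeq2. The IKK subunits CHUK, IKBKB and IKBKG had log2 fold changes of -0.08, -0.13 and -0.14 and were not called; they are named after their values were seen, as the complex itself.

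Of the 17 fitted receptors and adaptors, 3 rose, 2 fell and 12 were not called. IRAK2, an adaptor kinase of interleukin-1 and Toll-like receptors (log2 fold change 0.54), BIRC2, which encodes cIAP1 (0.37), and TRAF3, which with cIAP1 holds MAP3K14 low (0.22), rose at adjusted p = 0.000215, 0.000169 and 0.0156 by edgeR. TNFRSF1B, the second TNF receptor, fell from 276.4 ± 20.7 normalised counts (SD, n = 3) in Control to 174.9 ± 10.1 in the libraries labelled si-CITED2 (log2 fold change -0.66, adjusted p = 0.000429, edgeR). LTBR, the lymphotoxin-β receptor that signals through the alternative branch, fell by 0.17 on the log2 scale (adjusted p = 0.0468, edgeR). The call of LTBR was lost without Control replicate 2 or 3 or without replicate 2 or 3 of the libraries labelled si-CITED2 (-0.17 to -0.14), and that of TRAF3 without Control replicate 3 or without replicate 1 or 2 of the libraries labelled si-CITED2 (0.19 to 0.20). TLR4 was the gene of this list that did not pass the filter, with at most 2 reads in a library.

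Of the 9 ubiquitin ligases and deubiquitinases, 3 rose, 1 fell and 5 were not called. The genes that rose were CYLD, a deubiquitinase that restrains the pathway (log2 fold change 0.37, adjusted p = 0.00108, edgeR), TNIP1, which binds A20 (0.34, adjusted p = 7.47e-05), and SHARPIN, a subunit of the linear ubiquitin ligase (0.26, adjusted p = 0.0131). RNF31, the catalytic subunit of the same ligase, fell from 500.5 ± 37.5 normalised counts (SD, n = 3) to 399.8 ± 27.9 (log2 fold change -0.32, adjusted p = 0.0178, edgeR). The call of RNF31 was lost without Control replicate 1 or 3 or without replicate 2 of the libraries labelled si-CITED2 (-0.30 to -0.28), and that of SHARPIN without Control replicate 3 or without replicate 1 of the libraries labelled si-CITED2 (0.19 to 0.21).

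Activating ligands were low. Of the 8 listed, 4 passed the filter and 1 of them rose. LTB, lymphotoxin-β, was counted 84, 94 and 51 times in Control replicates 1, 2 and 3 and 189, 259 and 253 times in the libraries labelled si-CITED2, a log2 fold change of 1.83 ± 0.14 (SE, adjusted p = 8.15e-08, edgeR). TNF, IL1A and IL1B did not pass the filter, with at most 6, 3 and 3 reads in a library, and LTA had 6, 5 and 2 reads in Control and 9, 13 and 8 in the libraries labelled si-CITED2.

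Of the 20 fitted genes among 24 other textbook NF-κB targets, 10 rose, 1 fell and 9 were not called, and the median log2 fold change was 0.26. The log2 fold changes of those that rose ran from 0.15 to 3.87. MMP9, a matrix metalloproteinase, had 3, 1 and 1 reads in Control and 22, 31 and 15 in the libraries labelled si-CITED2, so its fitted value rests on very few Control reads. IL6, an inflammatory cytokine, was at 52.4, 53.1 and 47.1 normalised counts in Control and at 161.5, 152.9 and 169.8 in the libraries labelled si-CITED2 (log2 fold change 1.65, adjusted p = 6.04e-07, edgeR). CSF2, a myeloid growth factor, was at 54.2, 60.4 and 58.8 and at 131.1, 194.9 and 216.9 normalised counts (log2 fold change 1.65, adjusted p = 6.39e-06, edgeR). Both genes had groups far apart. CXCL8, the neutrophil chemokine and also a classical target, fell from 1565 ± 33.4 normalised counts (SD, n = 3) to 1280.5 ± 150.1 (log2 fold change -0.29, adjusted p = 0.0103, edgeR), so targets moved in both directions, and without replicate 3 of the libraries labelled si-CITED2 its log2 fold change was -0.26 (adjusted p = 0.0558, edgeR). SELE had 0 reads in all 6 libraries, VCAM1 and TNFAIP6 had a single read each over all libraries, and CCL2 had at most 2 reads in a Control library and 5 to 15 in the libraries labelled si-CITED2.

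**Figure D4:**
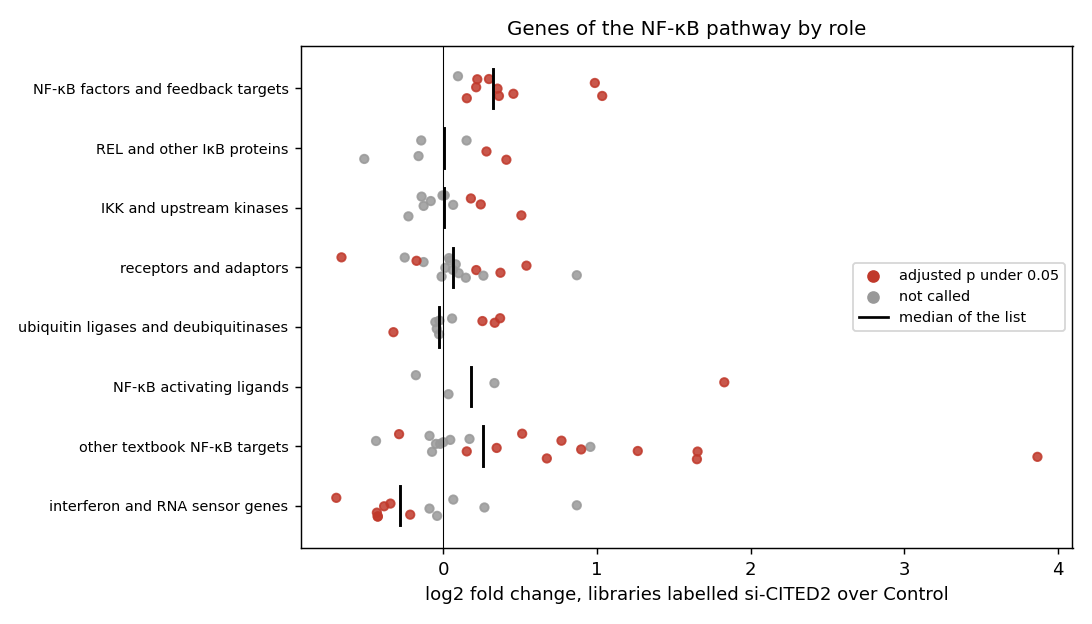
Log2 fold change, libraries labelled si-CITED2 over Control (horizontal axis), of the fitted genes in each list (rows), with genes at an adjusted p under 0.05 in red, the others in grey and the median of each list as a black line. The medians are 0.33 for the 10 NF-κB genes, 0.26 for the other textbook targets and -0.28 for the interferon and RNA sensor genes.

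Along the route from AKT to SNAIL that the study draws through NF-κB, AKT1 (4009 ± 77.7 normalised counts in Control and 4092 ± 180 in the libraries labelled si-CITED2, SD, n = 3) and AKT2 (2088 ± 119 and 2051 ± 55.9) were not called. The study proposes that CITED2 and nucleolin act on AKT through translation of its mRNA, a step that mRNA levels do not measure. SNAI1, which encodes SNAIL, rose (log2 fold change 0.94 ± 0.15, SE, adjusted p = 0.000326, edgeR). From quantitative PCR in PC3 and DU145 cells, the study reports that CITED2 raised mesenchymal marker mRNAs, with SNAIL as the marker measured. It also reports this for marker proteins by immunoblot, which counts do not measure. By the label alone, the rise of SNAI1 in the libraries labelled si-CITED2 runs the other way. CITED2 mRNA was itself higher in these libraries (log2 fold change 0.24), so at the mRNA level CITED2 and SNAI1 rose together. The coactivators EP300 (log2 fold change -0.07) and CREBBP (-0.04), which CITED2 and RELA both bind, were not called, and NCL, which encodes nucleolin, fell by 0.19 on the log2 scale (adjusted p = 0.0197, edgeR). The call of NCL was lost without Control replicate 2 or without replicate 1 of the libraries labelled si-CITED2 (-0.20 and -0.14).

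Transfected RNA can induce interferon-stimulated genes through RNA sensors whose pathways also reach NF-κB. Of 12 interferon-stimulated and RNA sensor genes, 7 fell and 0 rose, against 8.09% of all genes that fell and 9.36% that rose. DDX58, IFIH1, TLR3, EIF2AK2 and OAS1, named after their values were seen, were not called, with log2 fold changes of 0.07, -0.04, 0.87, -0.09 and 0.27. The values of TLR3 and OAS1 rest on few reads, 5 to 19 and 10 to 17 per library. Over the 12 genes the summed level was 15542 to 15897 normalised counts in Control and 12756 to 13216 in the libraries labelled si-CITED2. IFIT3 fell most, from 1788 ± 94.4 normalised counts (SD, n = 3) to 1103 ± 13.2 (log2 fold change -0.69, adjusted p = 2.16e-07, edgeR), followed by IFIT2 (-0.43) and IFIT1 (-0.43). The part of this difference in the levels of the NF-κB genes was not tested.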

How the data were processed

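RNA-seq counts of 6 libraries were used, 3 Control and 3 labelled si-CITED2. The deposited values are raw counts for each gene symbol, in a separate file for each library, as the authors made them. The submitters' processing notes name TopHat, edgeR and the build hg19; the counting program, annotation and strand setting are not given in the sources used here. Where a symbol had several rows only the most abundant stayed, and the others held 0.0821% of counts. Counts were filtered with filterByExpr, normalized by TMM and tested with edgeR 4.0.16 (R 4.3.3, quasi-likelihood test, design of group alone, Benjamini-Hochberg adjustment over 16314 genes). SEs came from the F statistic, and normalised counts are counts over the TMM-adjusted library size times its mean. The common biological coefficient of variation was 0.0614. The study describes the sequencing experiment as repeated independently, while the labels do not say what separates the replicates, so p-values measure the spread between these samples. Within each group the libraries varied beyond counting noise, with a chi-square over its degrees of freedom of 2.79 or more. Samples were not paired, since the study used unpaired tests. Those sharing a replicate number did not deviate together (r from -0.038 to 0.034).

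The members and lists were chosen with earlier results of these data known. Named were the 10 members, REL, the AKT, SNAIL and coactivator genes, and in each other list up to 3 called genes per direction with the largest change, plus genes filtered out; marker genes were checked as well. Some genes of these lists are not reported here. Positions are from GENCODE 29 (GRCh38) and promoters from RefSeq. On simulated data with 16314 genes, edgeR recovered 29 of 50 planted changes of 0.3 on the log2 scale, 43 of 50 of 0.5 and 48 of 50 of 1. Changes were planted only in genes with a mean of at least 50 counts, and every gene had the same biological coefficient of variation. Recovery in genes with fewer counts was not tested. Alternatives were a replicate block, DESeq2 1.42.0, RLE size factors, library size alone, other filters (none, or at least 10 counts in every library), summed repeated symbols and leaving out each library.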

Additional observations from a re-analysis of the deposited data

How the results depend on the processing

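The number of the 10 genes called was 7 to 9 over the 13 alternatives, with 0 called lower in any of them, and 7 to 8 when single libraries were left out. ICAM1, TRAF1, RELB, NFKB1, NFKB2, NFKBIA and TNFAIP2 stayed past the threshold in all 13, RELA in 5 and TNFAIP3 in 8, and BIRC3 in 0. With the replicate number as a block, 8 of the 10 genes, 24 pathway genes and 2559 genes in all were called, and RELA (log2 fold change 0.15, adjusted p = 0.0644, edgeR), MAP3K7 (0.18, adjusted p = 0.0592) and LTBR (-0.17, adjusted p = 0.0828) were not; the samples share only a number. With library size alone, CITED2 was at 0.22 (adjusted p = 0.0518, edgeR), and without single libraries at 0.17 to 0.29; it lost its call without Control replicate 1 or 3 or without replicate 1 or 3 of the si-CITED2 label. Pathway genes called numbered 18 to 23 without single libraries, against 26 with all, and those called lower 2 to 4, with 2 without Control replicate 3 or without si-CITED2 replicate 2, against 4 with all. Leaving out single libraries changed the sign of the uncalled AKT1 (-0.0028 to 0.063), AKT2 (-0.073 to 0.00035) and EP300 (-0.14 to 0.0051), which crossed 0 without si-CITED2 replicate 1, Control replicate 1 and Control replicate 3, respectively. The cause of these changes was not tested. Of the 40 genes tried under every alternative, 26 kept direction and side of the threshold throughout. MMP9 was not fitted under the filter of at least 10 counts in every library. DESeq2 called 2556 genes and leaving out single libraries 2016 to 2847. With 3 libraries a group and the simulated recovery at a change of 0.3, small changes may be missed.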
